A study of Komagataella pastoris with 4 samples.

Results

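The Gal83-deletion library was compared directly with the Gcn5-deletion library, without the parent strain in the ratio, for every row of the deposited count table whose mean over the 4 libraries of the series reached 20 counts. The filter left 5420 of 5427 rows. All cells were of the methylotrophic yeast Pichia pastoris (Komagataella pastoris in the labels) and were grown for 14 h in YNBM, a minimal medium with methanol. The parent GS115, labelled as wild type and called either name below, is a histidine auxotroph without antibiotic resistance. The deletion strains (Dgal83 and Dgcn5 in the titles, and Dmxr1, whose library served only for scaling and as a further reference level) are histidine auxotrophs that carry Zeocin resistance. The auxotrophy was thus shared by all strains, and the resistance by the compared pair. RNA was extracted with a column kit, ribosomal RNA was depleted with a kit made for bacteria, and libraries were sequenced. Each strain had 1 library, so no difference below has a replicate check, no p-value is given, and a difference between strains cannot be told apart from a difference between cultures.

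Gal83 belongs to the beta-subunits of the Snf1 complex, the yeast relative of AMP-activated protein kinase. In Saccharomyces cerevisiae this kinase is active when glucose is scarce, and its beta-subunits tether the catalytic subunit and direct it to places in the cell. Gcn5 is a histone acetyltransferase and the catalytic part of the coactivators SAGA and ADA, which acetylate histone tails at promoters and help to start transcription. The comparison thus sets the loss of a kinase subunit against the loss of a chromatin enzyme.

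Values are scaled counts, which are raw counts divided by a median-of-ratios size factor for the library. Ratios are log2 ratios of the Gal83-deletion library over the Gcn5-deletion library with 0.5 added to each count, so a positive value is higher in the Gal83 deletion. Brackets hold exact 95% Clopper-Pearson intervals, which cover counting error only. A row was called when its ratio reached 2-fold with an interval that left out equality. Total counts ran from 30582006 to 48539082 per library and were 30582006 and 30741258 in the compared pair. Rows are named by the table's own row identifier and description; 4644 of the compared rows have a description that names a product or a domain.

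The rows of the deleted genes were compared with the labels, which name the genes but not their rows. The row of the Snf1 beta-subunit (gene1360), taken as Gal83, had 8 raw counts where it is deleted and 2263 where Gcn5 is deleted, beside 5215 for GS115 and 3996 for the Mxr1-labelled strain. The log2 ratio was -8.52 [-9.83 to -7.63]. A second row, gene161, carries the name GAL83 in its description, and its scaled counts were 9158 for GS115, 4425 for the Mxr1-labelled strain, 5297 for the strain without Gal83 and 2807 for the one without Gcn5. The near-empty row in the library labelled Dgal83 was gene1360 and not gene161. The row of the histone acetyltransferase Gcn5 (gene3103) had 3060 raw counts where Gal83 is deleted and 3 where it is itself deleted, beside 2570 for GS115 and 1840 for the Mxr1-labelled strain. The log2 ratio was 9.30 [7.98 to 11.80]. The library labelled Dgcn5 was thus near 0 for the Gcn5 row, and the library labelled Dgal83 was near 0 for gene1360. Each was in the range of GS115 for the other row. The labels do not say whether gene1360 or gene161 is Gal83, so the near-empty gene1360 is no independent check of the Dgal83 label.

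The other subunits of the Snf1 complex differed by less than 2-fold. The catalytic kinase subunit (gene2489) had scaled counts of 3512 in the Gal83 deletion and 5423 in the Gcn5 deletion, beside 3765 for GS115 and 2955 for the Mxr1-labelled strain. The gamma subunit, which binds adenine nucleotides (gene2392), had 1864 and 2426 in the same pair, beside 3003 and 3942. On a list of 7 rows for the complex and its partners, 2 (28.6%) were called higher in the Gal83 deletion. Only gene1360 itself was called higher in the Gcn5 deletion. The called partners were a carbon source-responsive zinc-finger factor (gene4868), with a log2 ratio of 1.30, and a glucose repression transcription factor (gene5053), with 1.02. Among 11 rows of the SAGA and ADA complexes, 2 were called higher in the Gal83 deletion and 0 in the Gcn5 deletion, where 12.5% and 12.9% of all 5420 rows were called in these directions. The list's median log2 ratio was 0.72, against 0.02 over all rows. The called rows were SAGA-associated factor 11 (gene1945, 1.26) and an HFI1/ADA1 row (gene1593, 1.33). The next row, gene1594, has the same HFI1/ADA1 description and a log2 ratio of -0.41, so rows with 1 description did not move together.

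Over all rows, 680 were at least 2-fold higher in the Gal83 deletion, 12.5% of those compared, and 701 were at least 2-fold higher in the Gcn5 deletion, 12.9%, which makes 1381 rows or 25.5% in all. At least 4-fold differences were found for 118 rows (2.18%) and 114 rows (2.10%). At least 10-fold differences were found for 19 and 22 rows. The median log2 ratio of all rows was 0.02, with quartiles of -0.56 and 0.58. This even split rests on the scaling. With total counts in place of median-of-ratios factors, every ratio shifts by 0.48 and the median of all rows becomes 0.49. The calls become 1466 higher in the Gal83 deletion and 308 higher in the Gcn5 deletion. Because this shift is common to every row, list values given below with total counts are to be read beside these values. The 20 rows with the most counts held 16.4% of all counts without Gal83 and 29.7% without Gcn5, beside 21.6% for GS115 and 31.8% for the Mxr1-labelled strain. In the fifth of rows with the highest mean scaled count, 23.7% were called higher in the Gcn5 deletion and 14.3% higher in the Gal83 deletion. The comparison of all rows places the cytosolic ribosomal proteins below the diagonal.

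**Figure D1:**
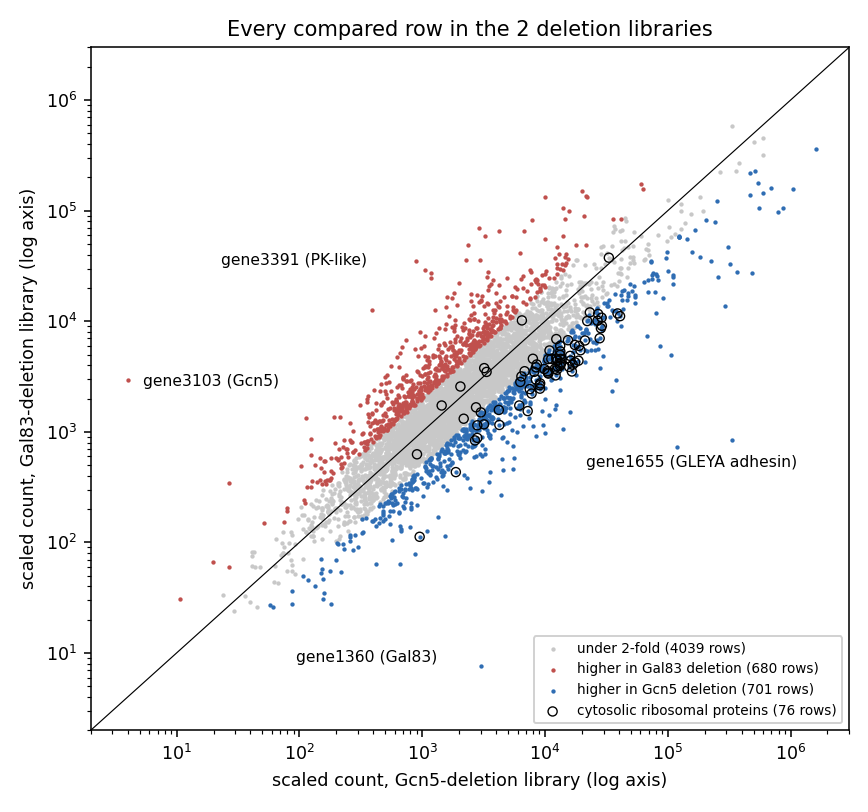
Scaled count of each of the 5420 rows in the Gcn5-deletion library (x, log axis) and the Gal83-deletion library (y, log axis), with called rows in colour and the 76 rows of the cytosolic ribosomal protein list circled. The deleted genes lie far off the diagonal in opposite directions, and most circled rows lie below it.

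Of the 38 gene lists, cytosolic ribosomal proteins had the largest share of called rows. These are the structural proteins of the ribosomes that translate nuclear-encoded messages. Of 76 rows on the list of cytosolic ribosomal proteins, 63 were called higher in the Gcn5 deletion and 0 higher in the Gal83 deletion, against 12.9% and 12.5% of all rows. Their median log2 ratio was -1.54, with quartiles of -1.75 and -1.15. The median scaled count of the list was 13776 for GS115, 8223 for the Mxr1-labelled strain, 3887 for the strain without Gal83 and 11081 for the one without Gcn5. The Gal83-deletion library was the lowest of the 4 for 70 of the 76 rows, and for 30.7% of all rows. With total counts as the scale, 41 of the rows were still called higher in the Gcn5 deletion and 1 higher in the Gal83 deletion, and the median was -1.06.

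Both ribosomal subunits took part. A list edited after the values were seen, which adds the acidic proteins and other spellings and drops mitochondrial names, holds 83 rows, of which 71 were called higher in the Gcn5 deletion and 0 higher in the Gal83 deletion. Its 34 rows of the small subunit had a median log2 ratio of -1.67, and its 49 rows of the large subunit had -1.45. The edited list took 1.35% of all raw counts without Gal83 and 2.57% without Gcn5, beside 3.71% for GS115 and 2.02% for the Mxr1-labelled strain. These shares scale each library by its total count.

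The largest ribosomal difference was in a row for the small-subunit protein S28 (gene4046), with scaled counts of 1066 for GS115, 344 for the Mxr1-labelled strain, 112 for the strain without Gal83 and 954 for the one without Gcn5. A large-subunit row described as nearly identical to another (gene4672) had 17167, 11925, 3514 and 16571 in the same order. For both rows the Gcn5 deletion was close to the wild type and the Gal83 deletion was the lowest library. An L22-like row (gene5380) had 6453, 7307, 1541 and 7237, and an S22 row (gene394) had 1102, 2565, 432 and 1881. In the latter pair the Gcn5-deletion and Mxr1-labelled libraries were above the wild type, and the Gal83 deletion was again the lowest. The description of gene4672 names a near-identical partner. Whether such pairs exist in this yeast, and how their reads would be divided between rows, is not given in the sources used here. Of the rows on the original list, 6 had a positive ratio. Among them L10 (gene1712) had 37583 in the Gal83 deletion and 33155 in the Gcn5 deletion, and an L2 row (gene805) had 10182 and 6493; these were chosen after their values were seen.

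Ribosome assembly factors leaned the same way with smaller ratios under the main scaling. Of 90 rows for ribosome biogenesis, 22 (24.4%) were called higher in the Gcn5 deletion and 3 (3.33%) higher in the Gal83 deletion, against 12.9% and 12.5% of all rows. The median log2 ratio was -0.65. With total counts it was -0.17 and the calls became 6 and 7, on a scale where 308 and 1466 of all rows were called in these directions. A constituent of the pre-ribosomal particles of the large subunit (gene4267) had scaled counts of 4284 for GS115, 15983 for the Mxr1-labelled strain, 3265 for the strain without Gal83 and 17779 for the one without Gcn5. A U3 snoRNA-associated protein (gene1702) had 4496, 12104, 1538 and 9537. In both rows the Gcn5-deletion and Mxr1-labelled libraries were above the wild type and the Gal83 deletion below it. Among 34 translation factors, 4 (11.8%) were called higher in the Gcn5 deletion and 1 (2.94%) higher in the Gal83 deletion, both under the shares of all rows. With total counts the calls became 0 and 3 and the median turned from -0.42 to 0.06.

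Mitochondrial ribosomal proteins, which build the separate ribosome of the organelle, were seldom called under the main scaling. On the edited list of 52 mitochondrial ribosomal proteins, 3 (5.77%) were called higher in the Gal83 deletion and 2 (3.85%) higher in the Gcn5 deletion, under the 12.5% and 12.9% of all rows, with a median log2 ratio of 0.21. With total counts the calls became 11 and 0. Median scaled counts were 1031 for GS115, 1067 for the Mxr1-labelled strain, 1065 for the strain without Gal83 and 1075 for the one without Gcn5. The unedited list had 10 rows and a median of 0.25.

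**Figure D2:**
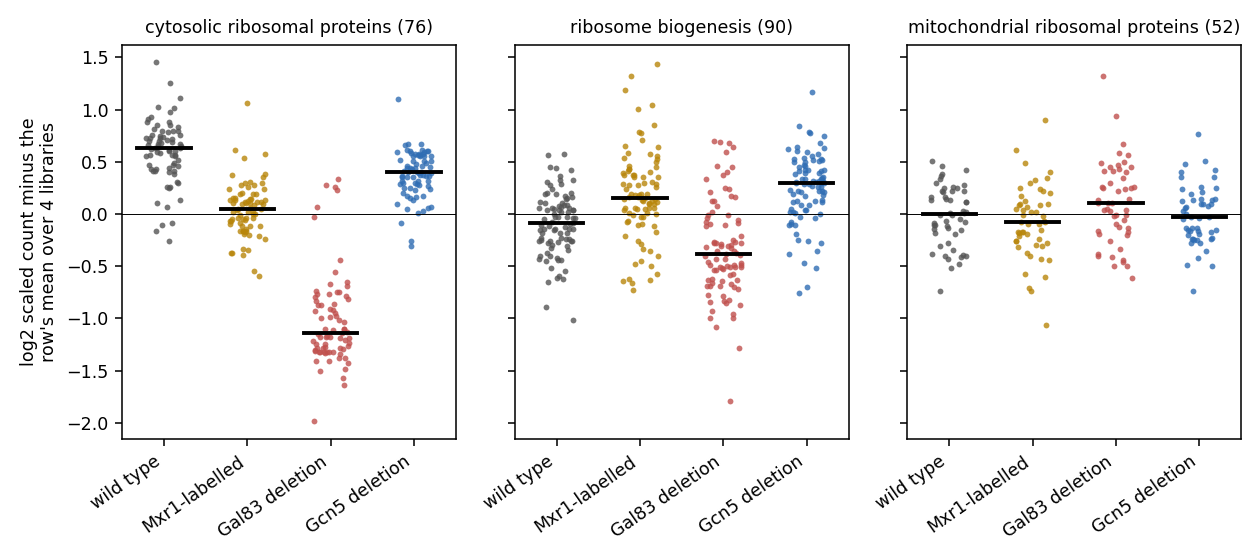
Log2 scaled count of each row minus its mean over the 4 libraries (y) in each library (x), for 76 cytosolic ribosomal protein rows, 90 ribosome biogenesis rows and 52 mitochondrial ribosomal protein rows; bars mark medians. The Gal83-deletion points lie lowest in the first panel, less so in the second, and among the others in the third.

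Cell-surface adhesins held the largest differences towards the Gcn5 deletion. Adhesins are wall proteins that let yeast cells stick to one another and to surfaces, and GLEYA domains are found in fungal members of the group. Of 19 rows on the list, 10 (52.6%) were called higher in the Gcn5 deletion and 3 (15.8%) higher in the Gal83 deletion, against 12.9% and 12.5% of all rows, with a median log2 ratio of -1.03 (-0.55 with total counts).

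A GLEYA row, gene1655, had scaled counts of 11453 for GS115, 414 for the Mxr1-labelled strain, 844 for the strain without Gal83 and 333023 for the one without Gcn5. Its log2 ratio was -8.62 [-8.72 to -8.53], a 395-fold difference. The libraries thus spread in both directions around the wild type, with the Gcn5 deletion far above it and the other deletion libraries below it. Its neighbour gene1654, without a described product, had 1709, 2026, 1626 and 12057 in the same order. A row described as zonadhesin (gene4334), a name transferred from an animal protein, had 6442, 222, 730 and 118543, a 162-fold difference between the compared pair. For this row too the Gal83 deletion was below the wild type and the Gcn5 deletion above it.

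Further surface rows had their highest level in the Gcn5 deletion. A lectin-like row with similarity to Flo1 (gene1454) had 2248 for GS115, 1966 for the Mxr1-labelled strain, 4971 for the strain without Gal83 and 105673 for the one without Gcn5. The GLEYA row gene4346 had 4156, 3202, 6035 and 86683, and it ends a run of 4 consecutive rows that were all called higher in the Gcn5 deletion. Another GLEYA row, gene5425, had 11847, 3429, 2342 and 35279. Rows called in the opposite direction included halomucin (gene1426), with 8948 in the Gal83 deletion and 1739 in the Gcn5 deletion. Another row described as zonadhesin (gene2042) was also called in that direction, with 10037 and 4729 in the same pair. Adhesin genes share repeats, and how reads matching several of them were counted is not given in the sources used here.

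Cell wall enzymes were divided. Of 48 rows for wall glucan and chitin, 10 (20.8%) were called higher in the Gcn5 deletion and 6 (12.5%) higher in the Gal83 deletion. The shares over all rows were 12.9% and 12.5%. With total counts the calls became 6 and 14, on a scale where 308 and 1466 of all 5420 rows were called in these directions. The glucosidase SCW11 (gene3006), which acts on wall glucan in cell separation in Saccharomyces cerevisiae, had scaled counts of 5300 for GS115, 1276 for the Mxr1-labelled strain, 740 for the strain without Gal83 and 5500 for the one without Gcn5. The glucan synthase FKS1 row (gene237) had 2601, 1439, 1627 and 5928. On the other side, a protein that transfers chitin to glucan (gene628) had 6322, 10221, 9580 and 2206.

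**Figure D3:**
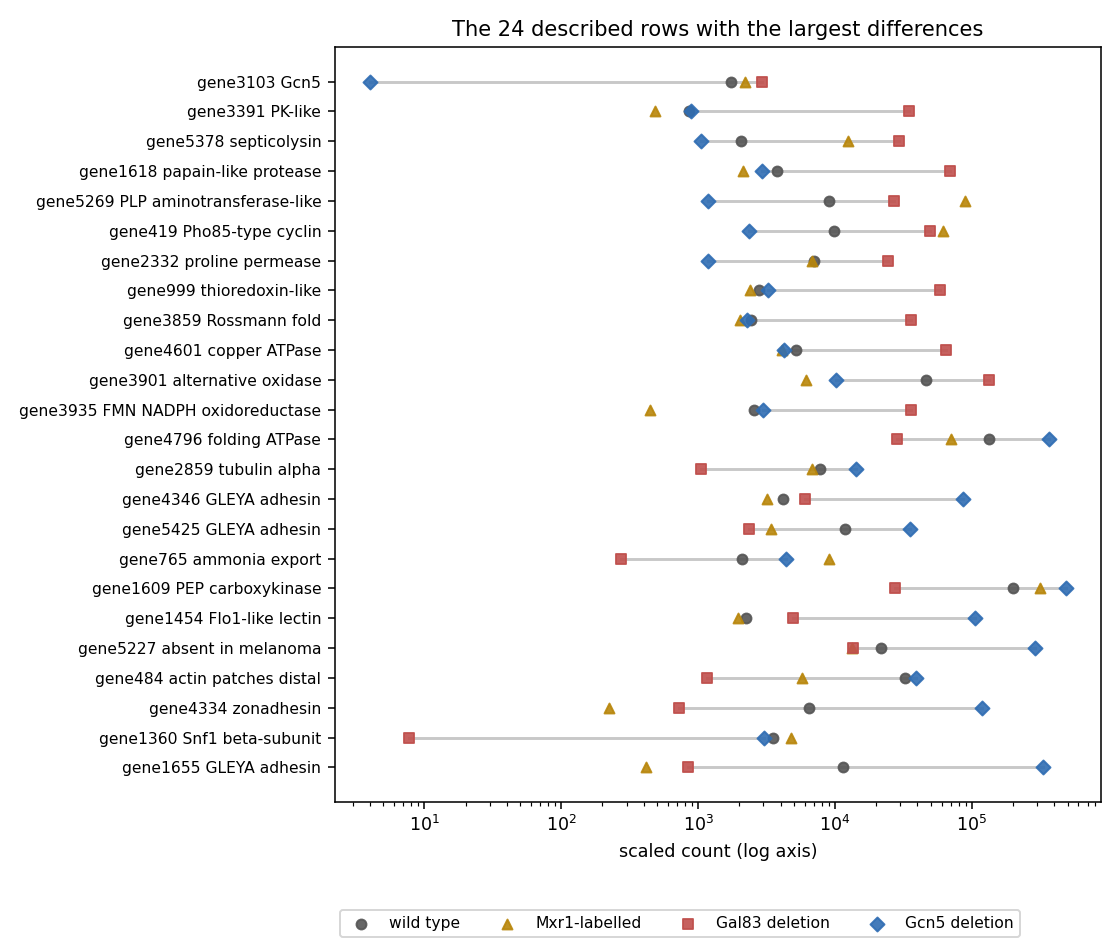
Scaled count (x, log axis) of the 12 highest and 12 lowest described rows by log2 ratio (y), in each of the 4 libraries; grey lines join the Gal83-deletion and Gcn5-deletion values. In several of the upper rows the Gcn5-deletion marker lies near the wild type and the Gal83-deletion marker stands alone on the right, and in the adhesin rows the Gcn5-deletion marker stands alone on the right.

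Central carbon metabolism differed at single enzymes. Phosphoenolpyruvate carboxykinase (gene1609), the enzyme that starts gluconeogenesis from oxaloacetate, had scaled counts of 200616 for GS115, 312303 for the Mxr1-labelled strain, 27219 for the strain without Gal83 and 489372 for the one without Gcn5. The Gal83 deletion was the lowest of the 4 libraries and 18.0-fold below the Gcn5 deletion. Isocitrate dehydrogenase (gene2422) had 1228, 1977, 448 and 4587. These were the 2 rows called higher in the Gcn5 deletion on the list of 28 for the tricarboxylic acid cycle and gluconeogenesis (7.14%). On that list 3 were called higher in the Gal83 deletion (10.7%), among them homocitrate synthase (gene1275) of lysine synthesis. Both shares were under those of all rows, and the list median of -0.32 turned to 0.16 with total counts. A list of 22, edited after the values were seen, had 1 row (4.55%) called higher in the Gal83 deletion. On it 2 (9.09%) were called higher in the Gcn5 deletion, and the median was -0.38. A high-affinity glucose transporter (gene1436) had 65460, 51277, 96748 and 784728, so the Gcn5 deletion alone was high. It lies in a run of 5 consecutive rows called higher in the Gcn5 deletion. A glycerol uptake facilitator (gene4541) went the other way, with 12509, 5070, 49261 and 18013. Pyruvate decarboxylase (gene4154), which leads from pyruvate to acetaldehyde, had 104872, 25187, 47095 and 308202, and a row with an alcohol dehydrogenase domain (gene2541) had 231971, 1128100, 155738 and 1053990.

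Methanol use, the carbon source of all cultures, starts with alcohol oxidase in the peroxisome and goes on through dihydroxyacetone synthase. Of 12 rows on the list, 3 (25%) were called higher in the Gcn5 deletion and 0 higher in the Gal83 deletion, against 12.9% and 12.5% of all rows, with a median log2 ratio of -0.77. With total counts the calls became 2 and 1 and the median -0.29. The main alcohol oxidase row (gene4497) had scaled counts of 898438 for GS115, 9185 for the Mxr1-labelled strain, 79368 for the strain without Gal83 and 241441 for the one without Gcn5. Both compared libraries were below the wild type, and the Gal83 deletion was the lower of them by 3.04-fold. A second row with the same description (gene5263) had 25373, 4361, 3813 and 7293, a difference under 2-fold. These rows may share reads, so their separate values are uncertain.

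Dihydroxyacetone synthase was present as a pair of rows of the same kind. The row gene3442 had 606934, 113355, 123611 and 250008, which passed 2-fold at a log2 ratio of -1.02, and gene3440 had 1166680, 130968, 322012 and 591407, which did not at -0.88. Dihydroxyacetone kinase (gene3432), the next step for 1 of its products, had 179850, 39632, 53730 and 98549. Peroxisomal catalase (gene1803), which removes the hydrogen peroxide made by the oxidase, had 273117, 53820, 227452 and 360866. Of the aldolase rows, gene386 had 98198, 81959, 34902 and 225898, and gene655 had 95056, 1372, 19572 and 23699. A large gap between the compared libraries was seen in gene386 and a small one in gene655, whose Mxr1-labelled value was by far the lowest.

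The remaining rows of the list belong to sugar-phosphate rearrangement. A transketolase row (gene968) had 9804, 11910, 22452 and 29563. Consecutive transaldolase rows had log2 ratios of 0.71 (gene2048), 0.03 (gene2049) and -0.06 (gene2050). In gene2050 the wild type was at 33791 and the other libraries lay between 5779 and 6936.

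Of 34 rows on the peroxisome list, which holds mostly membrane and assembly genes, 8 (23.5%) were called higher in the Gal83 deletion and 0 higher in the Gcn5 deletion, against 12.5% and 12.9% of all rows, with a median log2 ratio of 0.37. Besides peroxins, the called rows include the enzymes acyl-CoA thioesterase (gene2461, 1.95) and carnitine acetyl-CoA transferase (gene4293), and the list shares catalase (gene1803, -0.67) with the methanol list. The largest ratio was that of an integral membrane peroxin (gene3390), with scaled counts of 1172 for GS115, 938 for the Mxr1-labelled strain, 5711 for the strain without Gal83 and 972 for the one without Gcn5. Its neighbour gene3391, a protein kinase-like row, had 856, 482, 34903 and 887, the highest log2 ratio of any described row apart from Gcn5 at 5.30 [5.19 to 5.41]. In both rows the Gal83-deletion library stood alone. Peroxisomal biogenesis factor 2 (gene4324) had 7273, 2749, 6493 and 2214, so there the Gal83 deletion was near the wild type and the Gcn5 deletion below it. Carnitine acetyl-CoA transferase (gene4293) and isocitrate lyase (gene1180), used when acetyl units are the carbon source, had log2 ratios of 1.25 and 1.15, while malate synthase (gene5220) had -1.38 and the mitochondrial carnitine carrier (gene2069) had -1.16.

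Redox enzymes were called more often in the direction of the Gal83 deletion than of the Gcn5 deletion. Thioredoxins, glutathione peroxidases and cytochrome c peroxidase reduce peroxides and oxidised thiols. Of 48 rows on the list, 11 (22.9%) were called higher in the Gal83 deletion and 3 (6.25%) higher in the Gcn5 deletion, against 12.5% and 12.9% of all rows, while the median was -0.04 (0.43 with total counts). The list was thus not shifted as a whole, and its called rows made up a tail.

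A thioredoxin-like row (gene999) had scaled counts of 2767 for GS115, 2374 for the Mxr1-labelled strain, 58743 for the strain without Gal83 and 3252 for the one without Gcn5. Glutathione peroxidase (gene2096) had 4412, 3772, 65451 and 6699. Cytochrome c peroxidase (gene1799) had 61830, 16525, 151215 and 20048. The first pair was high in the Gal83 deletion alone, whereas for cytochrome c peroxidase the Gcn5 deletion was also below the wild type. The alternative oxidase (gene3901), which passes electrons from ubiquinol to oxygen without the later respiratory complexes, had 46064, 6162, 133757 and 10087. Rows higher in the Gcn5 deletion included the mitochondrial peroxiredoxin (gene3355), with 3420 and 10455 in the compared pair.

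A run of 4 consecutive rows described as NADPH oxidoreductases with flavin mononucleotide were all called. A list of 5 such rows, edited after the values were seen, also held 1 that was not called, with a log2 ratio of 0.10. Row gene3935 had 2577, 444, 35996 and 2953, gene3936 had 1731, 368, 16672 and 1600, gene3937 had 1618, 387, 16284 and 1737, and gene3938 had 1638, 449, 7348 and 1046, in the order used above. The Gal83 deletion was the highest and the Mxr1-labelled library the lowest in each, and the Gcn5 deletion was near the wild type in the first 3. The rows have near-identical descriptions and may share reads, so they are not separate observations. A further 50 rows are described only by a NAD(P)-binding Rossmann fold, a domain of many dehydrogenases. Of these, 16 (32%) were called higher in the Gal83 deletion and 5 (10%) higher in the Gcn5 deletion, against 12.5% and 12.9% of all rows. The top one (gene3859) had 2428, 2021, 35916 and 2270. The described row with the most counts in the Gal83-deletion library (gene3324) has the same description and had 638345, 349425, 584011 and 335555, a difference under 2-fold. A copper-exporting ATPase (gene4601) had 5209, 4097, 65044 and 4208, again high in the Gal83 deletion alone. Of 65 rows for iron, copper and iron-sulfur proteins, 12 (18.5%) were called higher in the Gal83 deletion and 10 (15.4%) higher in the Gcn5 deletion. The shares over all rows were 12.5% and 12.9%. With total counts the calls became 25 and 5, on a scale where 1466 and 308 of all 5420 rows were called.

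Rows for nitrogen uptake and permeases were called more often in the direction of the Gal83 deletion. Of 45 rows, 13 (28.9%) were called higher in the Gal83 deletion and 4 (8.89%) higher in the Gcn5 deletion. The shares over all rows were 12.5% and 12.9%, and the list had a median log2 ratio of 0.58. The list also holds breakdown and export rows. Proline permease (gene2332) had scaled counts of 7042 for GS115, 6740 for the Mxr1-labelled strain, 24400 for the strain without Gal83 and 1184 for the one without Gcn5. Proline oxidase (gene284), which starts proline breakdown in mitochondria, had 5402, 72218, 17137 and 2818. For both proline rows the Gal83 deletion was above the wild type and the Gcn5 deletion below it. A general amino acid permease (gene1338) had 3694, 2675, 9425 and 1551. The 2 ammonia export rows separated: gene2342 had 22263, 21789, 100242 and 15623, whereas gene765 had 2080, 9078, 271 and 4386. An oligopeptide transporter (gene5418) was higher in the Gcn5 deletion, with 435 and 3573 in the compared pair. Uricase (gene1975) and a general amino acid permease AGP1 row (gene2343) were also called in that direction, with log2 ratios of -2.12 and -1.21.

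Amino acid synthesis was called at about the rate of all rows, with 5 of 41 rows (12.2%) in each direction, against 12.5% and 12.9%, and a median of 0.10. With total counts 13 were called higher in the Gal83 deletion and 3 higher in the Gcn5 deletion. Homocitrate synthase (gene1275), the first enzyme of lysine synthesis in yeasts, had 43751, 98594, 90474 and 20920. The regulatory subunit of acetolactate synthase (gene214), in branched-chain synthesis, had 2807, 2742, 1416 and 10845. A pyridoxal phosphate enzyme described as aspartate aminotransferase-like (gene5269) had 8987, 88519, 27201 and 1183. A cyclin that partners the kinase Pho85 and is described as induced by Gcn4 (gene419), the activator of amino acid synthesis, had 9750, 61318, 49329 and 2353. In the last pair the Gcn5 deletion was the lowest of the 4 libraries.

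Vitamin pathways held calls in both directions. Of 37 rows matched for riboflavin, vitamin B6 and thiamine synthesis, 5 (13.5%) were called higher in the Gal83 deletion and 4 (10.8%) higher in the Gcn5 deletion, near the 12.5% and 12.9% of all rows, with a median of -0.31 that turned to 0.16 with total counts. That list also took nucleolar rows by its wording. A list of 19, edited after the values were seen, leaves out those rows, permeases, a transketolase and also a GTP cyclohydrolase (gene2246, 1.17). On it 4 and 1 were called, 14 were not, and the median was 0.53. The enzyme that makes the 4-carbon unit of riboflavin (gene4182) had 4538, 1415, 4757 and 627, and thiamine thiazole synthase (gene3647) had 35851, 9979, 58696 and 14069. The regulator row thi1 (gene4808), named after a regulator of thiamine-repressible genes in fission yeast, had 16988, 69811, 2943 and 37646. These 2 enzymes and the regulator row differed in opposite directions.

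Heat shock proteins and chaperones were higher in the Gcn5 deletion for several members. Of 66 rows, 14 (21.2%) were called higher in the Gcn5 deletion and 2 (3.03%) higher in the Gal83 deletion, against 12.9% and 12.5% of all rows. With total counts the calls became 10 and 11, on a scale where 308 and 1466 of all rows were called in these directions. The list median then went from -0.22 to 0.26, and that of all rows from 0.02 to 0.49. The row with the most counts in the Gcn5-deletion library, the Hsp70 chaperone Ssa3 (gene4104), had scaled counts of 572724 for GS115, 197527 for the Mxr1-labelled strain, 358296 for the strain without Gal83 and 1622940 for the one without Gcn5. An Hsp90 row (gene946) had 209771, 150554, 106154 and 552102. Heat shock protein 9/12 (gene4715) had 45230, 67735, 33228 and 323488. In all 3 rows the Gcn5 deletion was the highest library. The nucleotide exchange factor FES1 (gene3018), which releases nucleotide from Hsp70, had 17494, 2631, 4815 and 29684, and the cochaperone sti1 (gene2490) had 56465, 19422, 21588 and 110078. A folding ATPase outside the list (gene4796) had 133275, 69921, 28144 and 364745. The heat stress factor row gene2621 had 4101 in the Gal83 deletion and 13512 in the Gcn5 deletion, while the bZIP factor of the unfolded protein response (gene720) had 24369 and 4911.

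Proteasome and ubiquitin rows were called more often in the direction of the Gal83 deletion, and proteases and autophagy rows had medians near 0. Of 111 proteasome and ubiquitin rows, 19 (17.1%) were called higher in the Gal83 deletion and 4 (3.6%) higher in the Gcn5 deletion, against 12.5% and 12.9% of all rows, with a median of 0.31. On an edited list of 15 proteasome subunits, 2 (13.3%) were called higher in the Gal83 deletion and 0 higher in the Gcn5 deletion. The first share was near that of all rows, and the median was 0.43. A subunit that binds ubiquitin in the Rsp5 ligase complex (gene1674) had 9571, 26794, 19056 and 3435. The ubiquitin ligase ptr1 row (gene4653) had 1942, 1294, 13682 and 2592. Autophagy-related protein 8 (gene4630), the ubiquitin-like protein on autophagosome membranes, had 4606, 21916, 16752 and 5367. A papain-like protease (gene1618) had 3750, 2118, 69484 and 2906, and the row before it (gene1617), without a described product, had a log2 ratio of 5.00. Called the other way was an arginine/alanine aminopeptidase (gene2635), with 16188 in the Gal83 deletion and 91624 in the Gcn5 deletion. So were a vacuolar carboxypeptidase (gene4654) and a ubiquitin hydrolase (gene5401), with log2 ratios of -2.03 and -1.38. Of 86 proteases, 14 (16.3%) were called higher in the Gal83 deletion and 11 (12.8%) higher in the Gcn5 deletion, with a median of 0.01 and calls of 26 and 6 with total counts. Of 111 autophagy and vacuole rows, 13 (11.7%) and 7 (6.31%) were called in these directions, both under the shares of all rows, with a median of -0.02.

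Cell cycle, replication and cytoskeleton rows were called in both directions. Of 60 cyclin and cell cycle rows, 10 (16.7%) were called higher in the Gcn5 deletion and 4 (6.67%) higher in the Gal83 deletion, against 12.9% and 12.5% of all rows. With total counts these became 5 and 6, on a scale where 308 and 1466 of all rows were called in these directions. The list median then went from -0.29 to 0.19, and that of all rows from 0.02 to 0.49. The largest ratio on that list was the 4.39 of the Pho85 cyclin gene419 given above, and a subunit of the anaphase-promoting complex (gene2361) had 507, 629, 1192 and 258. Of 73 rows for DNA replication and repair, 10 (13.7%) were called higher in the Gcn5 deletion and 6 (8.22%) higher in the Gal83 deletion, with a median of 0.08; with total counts the calls became 5 and 14. The replication regulator SLD2 (gene4580) had a log2 ratio of 1.61. A G1 cyclin (gene868) had scaled counts of 6733 for GS115, 3468 for the Mxr1-labelled strain, 921 for the strain without Gal83 and 8472 for the one without Gcn5. A Pho85 cyclin of the Pcl1 group (gene2965) had 1782, 394, 289 and 3052. Subunits of the MCM helicase, which unwinds DNA at replication origins, had log2 ratios of -2.36 (gene1207), -2.01 (gene2900) and -1.72 (gene5185), and each was lowest in the Gal83 deletion. An alpha-tubulin (gene2859) had 7707, 6844, 1055 and 14148. Beta-tubulin (gene4817) had 8372, 2729, 1160 and 9619, and a second alpha-tubulin (gene4719) had 3736, 1519, 968 and 3444; these 2 rows were chosen after their values were seen. The tubulin rows that form microtubule walls were thus all lowest in the Gal83 deletion, while gamma-tubulin (gene5268) had a log2 ratio of 1.99.

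Mating-type rows were few and low but differed. The list of 49 rows for mating type, pheromone, meiosis and sporulation was called near the rate of all rows. On it 8 (16.3%) were called higher in the Gcn5 deletion and 7 (14.3%) higher in the Gal83 deletion. The shares over all rows were 12.9% and 12.5%, and the list median was -0.03. Row gene4439, a silenced ALPHA2 copy at HML, had scaled counts of 38 for GS115, 38 for the Mxr1-labelled strain, 78 for the strain without Gal83 and 883 for the one without Gcn5, and its neighbour, a mating-type protein (gene4438), had 200, 125, 263 and 1008. In both the Gcn5 deletion was the highest library. The pheromone receptors were called in opposite directions, with a log2 ratio of 1.15 for the a-factor receptor (gene3407) and -1.58 for the alpha-factor receptor (gene5294).

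Lipid and respiratory genes gave smaller or divided differences. Of 87 rows for sterol, phospholipid and fatty acid synthesis, 12 (13.8%) were called higher in the Gal83 deletion and 10 (11.5%) higher in the Gcn5 deletion, near the 12.5% and 12.9% of all rows, with a median of 0.20. With total counts the calls became 29 and 3. A list of 7 fatty acid synthesis rows was made after the values were seen. Of these, 5 were called higher in the Gcn5 deletion and 0 higher in the Gal83 deletion, with a median of -1.11. With total counts the calls became 1 and 1, on a scale where 308 and 1466 of all rows were called in these directions. Acetyl-CoA carboxylase (gene1083), which commits acetyl units to fatty acids, had 57249, 111034, 15467 and 42815. The delta-9 desaturase (gene2986) had 212734, 544558, 158932 and 696312. In both rows the Gal83 deletion was the lowest library. Sterol uptake control protein 2 (gene44), a regulator of sterol genes, went the other way with 1395, 3714, 6828 and 746. Of 97 respiratory chain and ATP synthase rows, 7 (7.22%) were called in each direction, under the shares of all rows, with a median of -0.28 that turned to 0.19 with total counts.

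Transcription factor rows were called more often in the direction of the Gal83 deletion. Of 163 such rows, 34 (20.9%) were called higher in the Gal83 deletion and 12 (7.36%) higher in the Gcn5 deletion. The shares over all rows were 12.5% and 12.9%, and the list median was 0.26. By its wording the list also took zinc finger rows that are not described as transcription factors. Called examples were an AN1-type row (gene4779, 2.07), a ZZ-type row (gene4611, 1.98) and a C2H2 row with an endoribonuclease name (gene3871, -1.61). Of 87 Mediator and RNA polymerase II rows, 7 (8.05%) and 1 (1.15%) were called in these directions, both under the shares of all rows. Of 60 rows for other histone modifiers and remodelers, which include Gcn5 itself, 3 (5.00%) were called higher in the Gal83 deletion and 2 (3.33%) higher in the Gcn5 deletion, and of 9 core histone rows on the edited list, 2 and 1. A histone acetyltransferase of the MYST family (gene3119) had 3748, 9983, 8951 and 3376, and the type B acetyltransferase (gene4106) had 4527, 6530, 1780 and 7566. Of 156 rows typed as miscellaneous RNA, 43 (27.6%) were called higher in the Gcn5 deletion and 13 (8.33%) higher in the Gal83 deletion. The part of ribosomal RNA depletion in those rows was not tested.

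**Figure D4:**
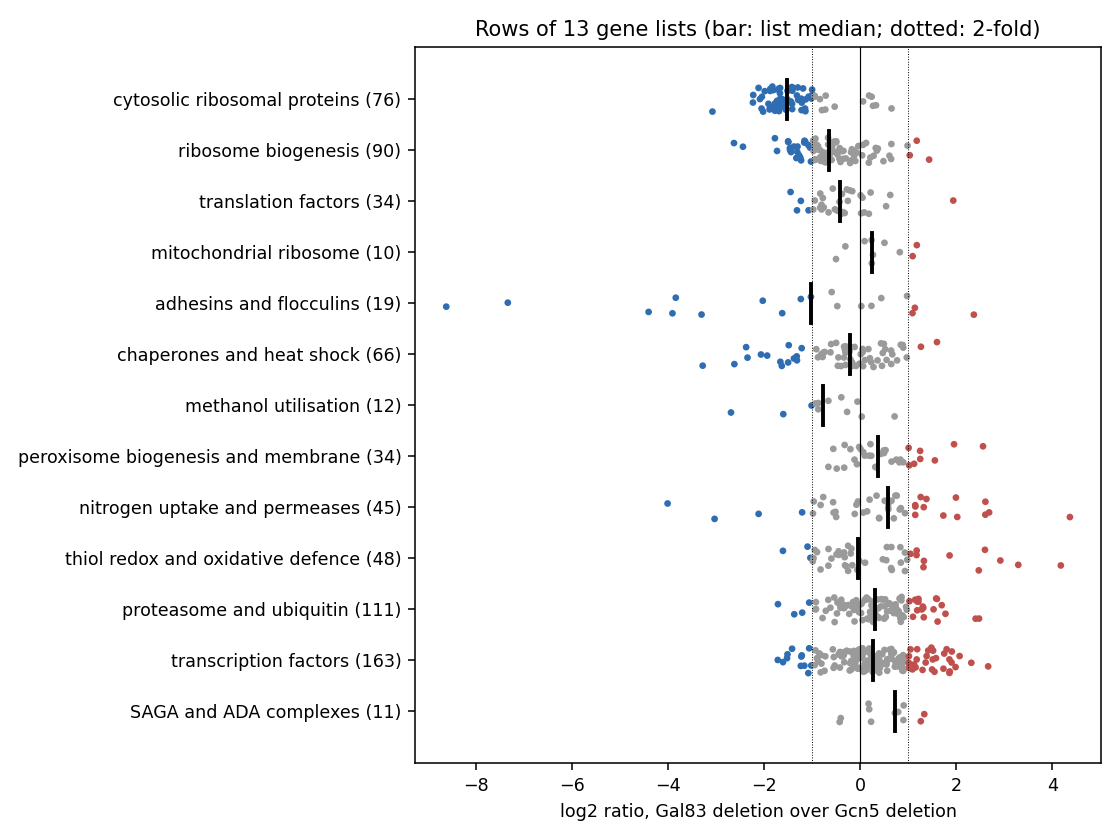
Log2 ratio of the Gal83-deletion over the Gcn5-deletion library (x) for each row of 13 gene lists (y, number of rows in brackets), with the list median as a bar and dotted lines at 2-fold. Cytosolic ribosomal proteins lie to the left at a median of -1.54, adhesins reach -8.62, and nitrogen, redox and peroxisome rows reach to the right.

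Differences near the deleted genes were not alike. The row before gene1360, a nucleoside triphosphatase (gene1359), had scaled counts of 1364 for GS115, 1392 for the Mxr1-labelled strain, 13566 for the strain without Gal83 and 1572 for the one without Gcn5. The row after it, a mitochondrial distribution and morphology protein (gene1361), had 14149, 67611, 105291 and 14104, and the next (gene1362) had a log2 ratio of 1.38. These rows, named for their position after their values were seen, were thus higher in the strain that lacks gene1360. Further off in the same window of 6 rows to each side, 3 rows were called in the other direction, gene1354 at -1.45, gene1355 at -1.04 and gene1356 at -1.13. Beside gene3103 no row within 6 positions was called, and the closest to 2-fold was gene3102 at 0.98. The part of the deletion cassette in the rows beside gene1360 was not tested. Elsewhere, 23 runs of at least 4 consecutive rows were called in 1 direction, 14 higher in the Gal83 deletion and 9 higher in the Gcn5 deletion, and some of them contain split or non-coding rows that may share reads.

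**Figure D5:**
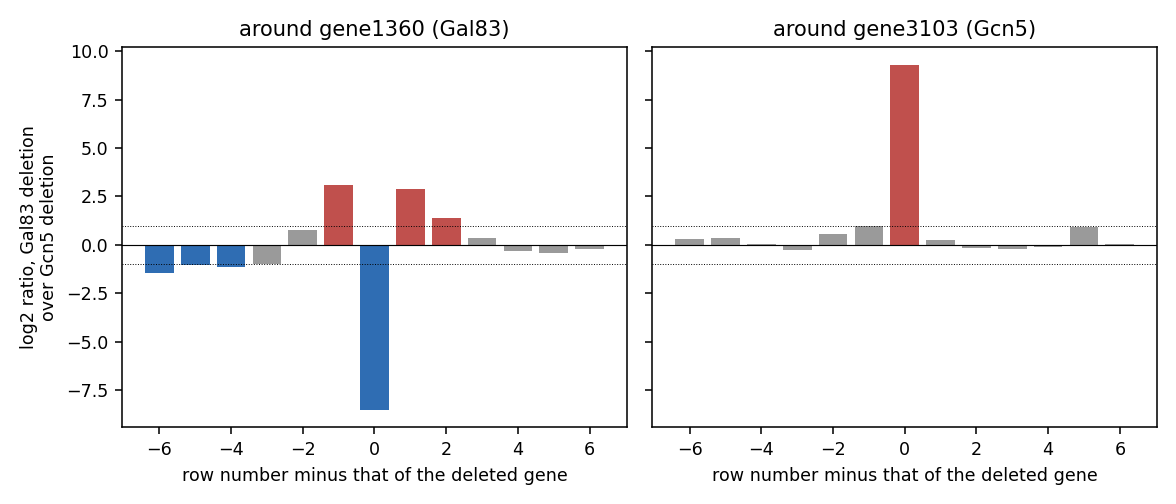
Log2 ratio of the Gal83-deletion over the Gcn5-deletion library (y) for rows up to 6 positions from each deleted gene (x, difference in row number); bars past 2-fold are coloured. Rows next to gene1360 reach 3.11 and 2.90, 3 rows further before it have -1.45, -1.04 and -1.13, and rows next to gene3103 stay under 2-fold.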

How the data were processed

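RNA-seq gave 4 libraries, 1 per strain. The deposited table holds raw counts per feature, and the authors deposited 5427 features for these libraries. Per the submitters' processing notes, DESeq2, featureCounts 1.6.4, Bowtie2, fastp 0.19.6 and bcl2fastq 2.19.0.316 were used; their settings, genome build and strand handling are not given in the sources used here. Rows with a mean under 20 counts were removed, which left out 7. Size factors came from the median of ratios over 4 libraries, and 0.5 was added before log2 ratios. The log2 ratios and 95% Clopper-Pearson intervals were computed here from the deposited counts with Python 3.11.15, scipy 1.17.1 and edgeR 4.0.16 for alternative factors; DESeq2 1.42.0 checked the factors. On simulated counts for 5420 rows in this comparison, all 200 changed rows were called and 0 others. The simulation held counting error only, and every true change was set past 2-fold. It held no variation between cultures, so it checks the computation and not how reliable the calls are.

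Members and the 38 gene lists were chosen with earlier results of these data known, and 18 edited lists after the values were seen. Rows were named by rule: deleted genes, Snf1 subunits, the 12 highest and 12 lowest described rows, all methanol rows, up to 4 called rows per list and direction, and the described row with the most counts in each library. Ranking passed over 2 and 1 undescribed rows. No locus tag matched the reference table (0 of 5427), so names are the table's own.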

Additional observations from a re-analysis of the deposited data

How the results depend on the processing

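No paired analysis was possible because each strain had 1 library. With total counts as the scale, 1466 rows were called higher in the Gal83 deletion and 308 higher in the Gcn5 deletion, against 680 and 701; for cytosolic ribosomal proteins these counts were 1 and 41, against 0 and 63, and their median was -1.06 in place of -1.54. The shift was the same for every row, 0.48 on the log2 scale, and 14 of 38 list medians changed sign. At 4-fold the calls were 118 and 114, and 8 ribosomal rows were called higher in the Gcn5 deletion, by construction of the stricter rule. Trimmed-mean (TMM) factors, upper-quartile factors, factors from the 2 compared libraries, factors without the 20 highest rows, no filter, a mean of at least 100 counts, 5 added to each count, protein-coding rows only and, added after the data were seen, leaving out rows that share reads gave between 637 and 695 rows higher in the Gal83 deletion and between 657 and 735 higher in the Gcn5 deletion. No called named row changed sign under any setting, but with calls starting at 2-fold and a shift of 0.48 this was hardly possible. Of all 243 named rows, called or not, 4 changed sign with total counts and 1 under another setting. Counting error was small (median interval width 0.20 log2 units), so culture-to-culture variation, which 1 library per strain cannot show, limits every value.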
